A study of Ovis aries with 2 samples.

Results

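The genes described here are 10 rows of both expression matrices, found by gene symbol: FOS, FOSB, JUN, JUNB, JUND, ATF3, IER2, IER3, ZFP36 and DUSP1. All 10 were found, among 23141 genes listed for each library. They were measured by droplet single-cell RNA sequencing in dissociated anterior pituitaries of Hu sheep, a prolific Chinese breed, with 1 library at 6 months of age and 1 at 3 months. Both libraries were digested with type IV collagenase in a warm water bath, strained and freed of red blood cells. How many animals were pooled, and of which sex, the labels do not say. Since each age had 1 library, no test was run, every difference is one between these libraries, and age and library cannot be told apart.

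AP-1 is a dimeric transcription factor built from Fos and Jun family proteins, which hold together through a leucine zipper. Most of its genes are immediate early genes: they are switched on within minutes of a stimulus from transcription factors already present in the cell, and their mRNAs decay fast. In the pituitary, hypothalamic releasing hormones induce them through MAP kinase signalling, and in many tissues enzymatic dissociation into single cells induces them as well. The set also holds genes that act against the response: ZFP36 encodes tristetraprolin, which destabilises AU-rich mRNAs, and DUSP1 encodes a phosphatase that inactivates MAP kinases.

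The 6-month library held 175239612 UMIs (unique molecular identifiers, which count transcripts) and kept 12683 cells after filtering and doublet removal, and the 3-month library held 142479651 UMIs and kept 15446 cells. The libraries shared 81 barcode sequences. Cells fell into 31 clusters, formed without 75 early response and heat shock genes that include the members, and 10 classes were named from marker genes, each called "like" its type. The marker check left 1647 cells at 6 months and 3507 cells at 3 months unnamed, and mitochondrially encoded genes had 0 UMIs. Hormone transcripts in endothelial, fibroblast and immune cells, which should lack them, stood at 29.0% of their all-cell level at 6 months and 12.3% at 3 months, so free RNA was more abundant in the 6-month library. Levels are in CPM, the UMIs of a gene per 1000000 UMIs of the class. UMIs are counted once per transcript, so levels of different genes were set side by side without dividing by length.

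Over all analysed cells, the 10 genes made up 0.640% of UMIs at 6 months and 1.34% at 3 months. FOS was the most abundant in both libraries, with 2047 CPM at 6 months and 4865 CPM at 3 months, followed at 6 months by JUND (1152 CPM) and JUN (1073 CPM) and at 3 months by JUN (2636 CPM) and JUND (1608 CPM). ZFP36 was the least abundant, with 25.6 CPM at 6 months and 78.8 CPM at 3 months. IER3 had nearly the same all-cell level, 174.0 CPM at 6 months and 194.2 CPM at 3 months.

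The members' summed share of UMIs differed more between cell classes than between libraries. It was highest in stem or folliculostellate-like cells at 6 months, at 2.16% (2094 cells), and in macrophage-like cells at 3 months, at 3.35% (1374 cells). Stem or folliculostellate-like cells, the SOX2-positive and epithelial cells of the gland, had 3.14% at 3 months (3448 cells). Macrophage-like cells had 1.20% at 6 months (1725 cells). The lowest share among the large classes was that of lactotroph-like cells, the prolactin producers, with 0.202% at 6 months (5010 cells) and 0.256% at 3 months (2298 cells). Somatotroph-like cells (growth hormone producers) had 0.241% at 6 months (505 cells) and 0.387% at 3 months (1283 cells), while gonadotroph-like cells (LH and FSH producers) had 0.325% (256 cells) and 0.969% (1154 cells) at these ages. Endothelial-like cells had 1.09% at 6 months (252 cells) and 0.893% at 3 months (1875 cells), and T or NK-like cells 0.794% (1013 cells) and 1.28% (110 cells). Of the 7 classes with at least 50 cells in each library, only endothelial-like cells had the higher share at 6 months.

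Among the classes with fewer cells, fibroblast-like cells had 1.16% at 6 months (29 cells) and 2.63% at 3 months (144 cells). B or plasma-like cells had 0.422% at 6 months (143 cells) and 0.696% at 3 months (19 cells). Corticotroph or melanotroph-like cells had 0.114% at 6 months, from 28 member UMIs in 9 cells, and 0.578% at 3 months (234 cells). These shares are of a class's own UMIs, and hormone mRNA fills part of that total. Hormone transcripts were 52.3% of lactotroph-like UMIs at 6 months and 56.0% at 3 months, against 3.39% and 1.17% in stem or folliculostellate-like cells.

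**Figure D1:**
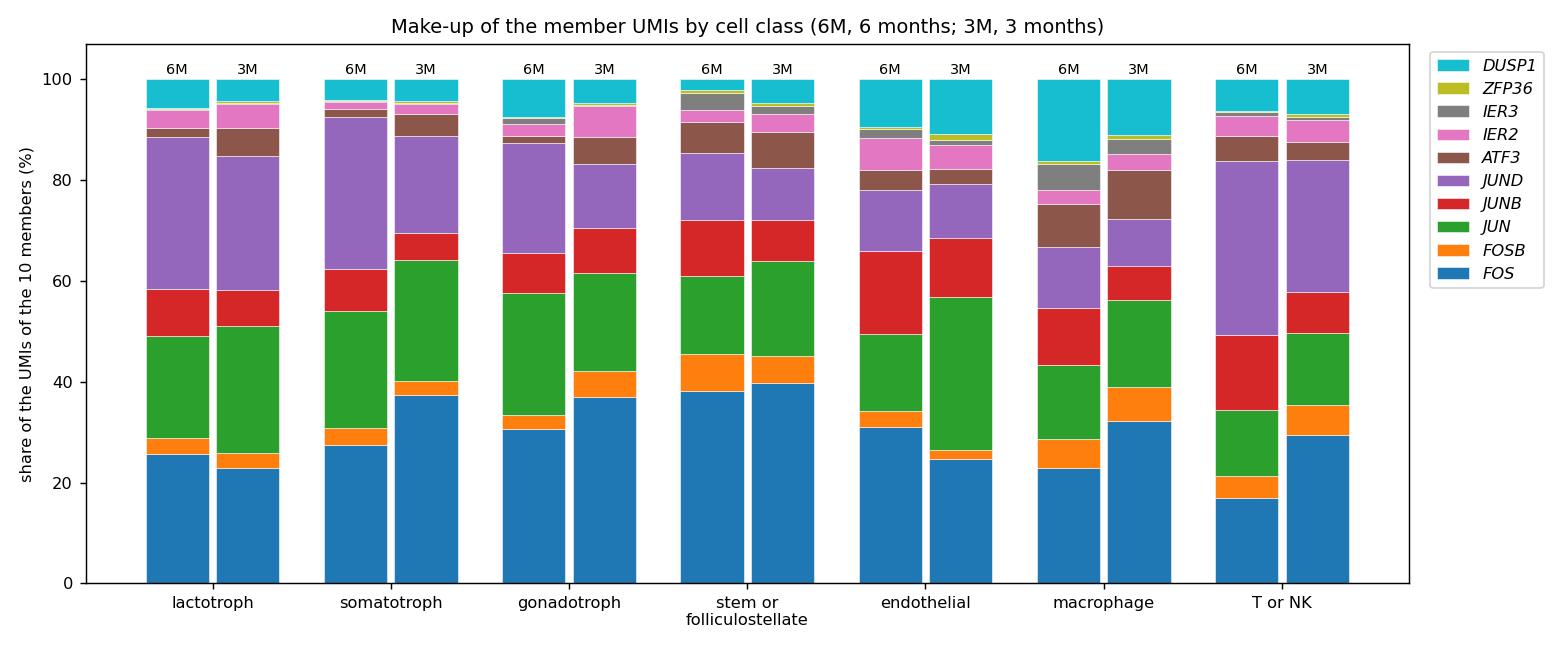
Share of each member in the UMIs of all 10 (y axis, %, starting at 0) in the 7 classes with at least 50 cells per library, with the 6-month bar left of the 3-month bar. FOS takes 38.2% at 6 months and 39.8% at 3 months in stem or folliculostellate-like cells, while JUND takes 34.4% of the 6-month T or NK-like bar.

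Which member dominated depended on the class. FOS led 5 of the 10 named classes at 6 months and 7 at 3 months, JUND led 5 at 6 months and 1 at 3 months, and JUN led none at 6 months and 2 at 3 months. No other member led any class in either library. FOS led in gonadotroph-like, stem or folliculostellate-like, macrophage-like and fibroblast-like cells of both libraries. Its share of the member UMIs was 38.2% at 6 months and 39.8% at 3 months in stem or folliculostellate-like cells, 35.7% and 45.3% in fibroblast-like cells, 30.6% and 37.1% in gonadotroph-like cells, and 22.9% and 32.2% in macrophage-like cells. Within gonadotroph-like cells at 6 months, FOS was first only in the cluster with FSHB as leading gene (81 cells, 37.5%). JUND was first in those with IGFBP1 (142 cells, 30.3%) and LHB (33 cells, 28.9%) as leading genes. Among macrophage-like clusters at 6 months, DUSP1 was first in 1 of 234 cells (15.9%) and FOS in the others.

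JUND, the Jun protein made most steadily in unstimulated cells, was first in lactotroph-like cells of both libraries. It took 30.1% of member UMIs at 6 months and 26.6% at 3 months. In somatotroph-like cells JUND led at 6 months (30.2%) and FOS at 3 months (37.5%). T or NK-like cells likewise had JUND first at 6 months (34.4%) and FOS first at 3 months (29.5%, in 110 cells), with JUND at 26.2%. Corticotroph or melanotroph-like cells had JUND first at 6 months (42.9%, exact 95% interval 24.5 to 62.8) and FOS first at 3 months (33.1%).

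Endothelial-like cells had FOS first at 6 months, with 31.1%, and JUN first at 3 months, with 30.4%. There JUN took 15.4% at 6 months, behind JUNB with 16.4%. B or plasma-like cells had JUND first at 6 months (30.7%) and JUN first at 3 months (30.7%). Macrophage-like cells stood apart in their second member at 6 months: DUSP1 took 16.3% there and 11.0% at 3 months, its highest share of any named class in each library. At 3 months endothelial-like cells were nearly equal, with 10.8% and an overlapping interval. ATF3 and IER3 also had their highest shares in macrophage-like cells of both libraries, ATF3 with 8.61% at 6 months and 9.83% at 3 months and IER3 with 5.13% and 3.10%.

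Free RNA bears on these rankings, mostly in the hormone cells. The free pool estimated from hormone transcripts, taken as a fixed share of class UMIs, would bring 115% of the FOS UMIs of lactotroph-like cells at 6 months and 102% at 3 months, so it exceeds what was counted. Taken as a fixed number of UMIs per cell, 1825 at 6 months and 472 at 3 months, it would bring 37.4% and 19.8%. In stem or folliculostellate-like cells the same estimates gave 7.20% at 6 months and 4.79% at 3 months, or 3.84% and 2.35%. The fixed share would bring 59.9% of the gonadotroph-like FOS UMIs at 6 months and 39.5% of the JUN UMIs, which would put JUN first. In T or NK-like cells at 3 months the fixed number would bring 20.4% of FOS and 7.58% of JUND UMIs. JUND would then be first there. With either estimate subtracted, FOS led 8 of the 14 class and library combinations compared, against 9 as reported. How much of the members' level in hormone or T or NK-like cells is free RNA was not tested.

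**Figure D2:**
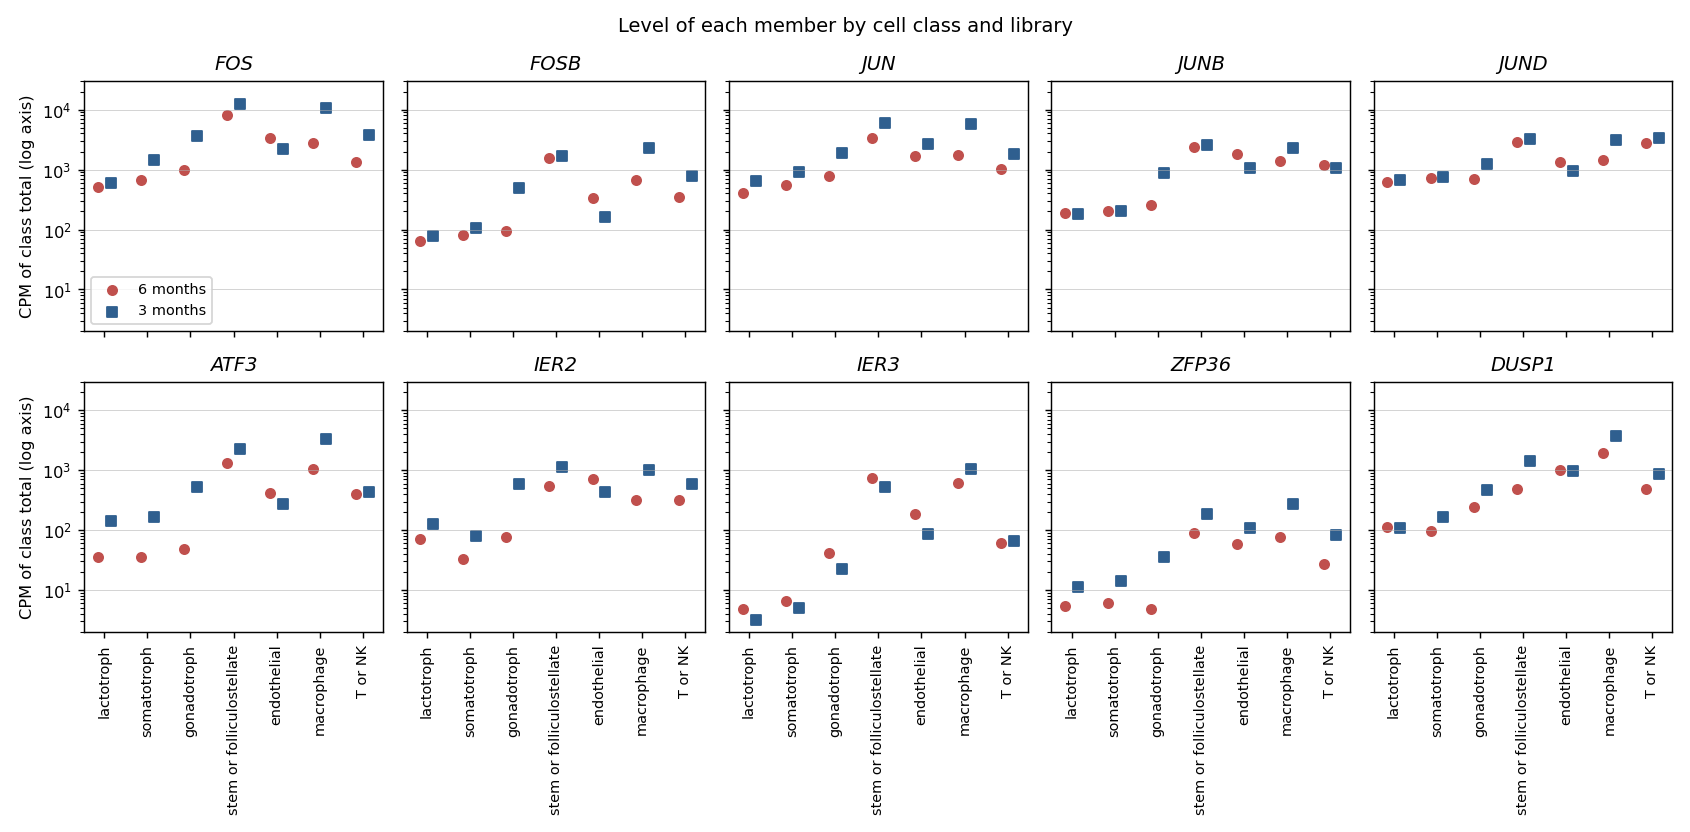
Level of each member (y axis, CPM of the class total, log axis) in the 7 classes compared, with red circles for the 6-month library and blue squares for the 3-month library. FOS spans 518.2 to 8262 CPM at 6 months, and ZFP36 is at most 274.9 CPM in any class, in 3-month macrophage-like cells.

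FOS (NCBI Gene 443218) encodes c-Fos, which cannot pair with itself and binds DNA with a Jun protein. At 6 months it had 8262 CPM in stem or folliculostellate-like, 4147 CPM in fibroblast-like, 3402 CPM in endothelial-like, 2752 CPM in macrophage-like and 1345 CPM in T or NK-like cells. The level was 992.4 CPM in gonadotroph-like, 970.3 CPM in B or plasma-like, 660.2 CPM in somatotroph-like, 518.2 CPM in lactotroph-like and 365.3 CPM in corticotroph or melanotroph-like cells. At 3 months the order began with stem or folliculostellate-like (12474 CPM), fibroblast-like (11904 CPM) and macrophage-like cells (10778 CPM). It went on with T or NK-like (3781 CPM), gonadotroph-like (3591 CPM), endothelial-like (2200 CPM), corticotroph or melanotroph-like (1912 CPM), somatotroph-like (1451 CPM), B or plasma-like (1290 CPM) and lactotroph-like cells (586.4 CPM). Stem or folliculostellate-like cells were first and lactotroph-like cells last or second to last at both ages, while gonadotroph-like cells stood above endothelial-like cells at 3 months only. With 1 library an age, the order has no spread over samples.

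FOSB (101117101), the second Fos protein, followed FOS at a lower level. It was highest in stem or folliculostellate-like cells at 6 months, with 1561 CPM against 1696 CPM at 3 months, and in macrophage-like cells at 3 months, with 2262 CPM against 681.4 CPM at 6 months in the same class. It had 63.3 CPM at 6 months, against 76.7 CPM at 3 months in lactotroph-like cells. The ratio of FOS to FOSB UMIs ranged from 3.80 in T or NK-like cells to 10.7 in gonadotroph-like cells at 6 months, and from 4.77 in macrophage-like cells to 13.8 in somatotroph-like cells at 3 months, over the named classes.

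JUN (443219) encodes c-Jun, the main partner of c-Fos. It had 3361 CPM at 6 months, against 5908 CPM at 3 months in stem or folliculostellate-like cells, 1768 and 5764 CPM in macrophage-like cells at these ages, and 1680 and 2718 CPM in endothelial-like cells. In hormone cells it had 788.5 CPM at 6 months, against 1883 CPM at 3 months in gonadotroph-like, 559.7 and 928.0 CPM in somatotroph-like, and 409.9 and 645.2 CPM in lactotroph-like cells. JUN was lower at 6 months in each of the 10 named classes. There were 2.46 FOS UMIs per JUN UMI at 6 months and 2.11 at 3 months in stem or folliculostellate-like cells, but 2.02 at 6 months and 0.809 at 3 months in endothelial-like cells.

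JUNB (443117), a Jun protein that activates transcription less strongly than JUN, was highest in stem or folliculostellate-like cells at 6 months (2406 CPM) and in fibroblast-like cells at 3 months (3360 CPM). In endothelial-like cells it had 1795 CPM at 6 months, against 1043 CPM at 3 months, and in T or NK-like cells 1188 and 1060 CPM. The number of JUNB UMIs per JUN UMI was higher at 6 months in 6 of the 7 classes compared; in gonadotroph-like cells it was 0.324 at 6 months and 0.461 at 3 months. In endothelial-like cells it was 1.07 at 6 months and 0.384 at 3 months, and in T or NK-like cells 1.16 and 0.585.

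JUND (443102) varied least between the 7 compared classes, by the ratio of highest to lowest. Over all named classes it ranged at 6 months from 487.0 CPM in corticotroph or melanotroph-like cells to 2878 CPM in stem or folliculostellate-like cells, and at 3 months from 682.0 CPM in lactotroph-like to 3358 CPM in T or NK-like cells. T or NK-like cells had 2735 CPM at 6 months, near the level of the stem or folliculostellate-like cells of that library. Lactotroph-like cells had 608.9 CPM and somatotroph-like cells 729.8 CPM at 6 months, against 682.0 and 751.9 CPM at 3 months.

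ATF3 (101116073) encodes a stress-induced leucine zipper protein that pairs with Jun proteins and often represses. It was highest in the same 2 classes of each library: stem or folliculostellate-like cells had 1312 CPM at 6 months, against 2257 CPM at 3 months, and macrophage-like cells 1035 and 3290 CPM. In hormone cells it had 47.8 CPM at 6 months, against 522.8 CPM at 3 months in gonadotroph-like, 35.8 and 140.5 CPM in lactotroph-like, and 35.0 and 166.6 CPM in somatotroph-like cells. T or NK-like cells had 394.2 CPM at 6 months, against 435.7 CPM at 3 months. The fixed-share free RNA estimate would bring 207% of the gonadotroph-like ATF3 UMIs at 6 months and 22.6% at 3 months, and the fixed number per cell 66.7% and 7.54%. In somatotroph-like cells at 6 months both estimates exceeded the ATF3 count, at 283% and 212%.

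IER2 (101103471, an identifier without the same symbol in the RefSeq gene list consulted) encodes a nuclear immediate early protein. It had its highest level in endothelial-like cells at 6 months (705.4 CPM, against 424.9 CPM at 3 months) and in stem or folliculostellate-like cells at 3 months (1120 CPM, against 539.1 CPM at 6 months). In gonadotroph-like cells it had 76.8 CPM at 6 months, against 582.8 CPM at 3 months. IER3 (101108867), an early response gene linked to cell survival, had another pattern. It was at 734.5 CPM at 6 months and 534.6 CPM at 3 months in stem or folliculostellate-like cells and at 616.5 and 1036 CPM in macrophage-like cells, but at 4.76 and 3.22 CPM in lactotroph-like and 6.62 and 5.02 CPM in somatotroph-like cells. These lactotroph-like levels were below what either free RNA estimate would bring, so IER3 in these hormone cells was not distinguishable from free RNA at this depth.

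ZFP36 (443283) was low everywhere, and lower at 6 months in each of the 10 named classes. Its highest levels were 90.1 CPM in stem or folliculostellate-like cells at 6 months and 274.9 CPM in macrophage-like cells at 3 months, where the 6-month level was 75.7 CPM. In gonadotroph-like cells it had 4.80 CPM at 6 months, from 24 UMIs, and 35.5 CPM at 3 months. DUSP1 (101107632) was highest in macrophage-like cells, with 1957 CPM at 6 months and 3672 CPM at 3 months. Endothelial-like cells came second at 6 months with 1026 CPM, against 967.4 CPM at 3 months. Stem or folliculostellate-like cells had 480.9 CPM at 6 months, against 1445 CPM at 3 months, so they were second at 3 months only.

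Single cells of one class differed widely in their member share. In stem or folliculostellate-like cells the median was 1.93% of a cell's UMIs at 6 months and 2.76% at 3 months. The 10th and 90th percentiles were 0.821% and 3.65% at 6 months and 0.176% and 5.53% at 3 months. Over the class as a whole, the 3-month cells thus reached both lower and higher. Cells under 0.5% were 5.64% of the class at 6 months and 18.0% at 3 months, and cells over 2% were 47.0% and 61.3%. The low cells at 3 months lay mostly in the clusters led by IFI6 and by TNC. In a cluster led by S100A2, with 1577 cells at 6 months and 258 at 3 months, 0.761% and 1.16% of cells were under 0.5%. The 10th percentile at 6 and 3 months was 1.16% and 3.08% in the S100A2-led cluster and 0.188% and 0.247% in the IFI6-led one. It was lower at 3 months in the TNC-led one only, with 0.164% at 6 months and 0.110% at 3 months. In the IFI6-led cluster that held most of the class at 3 months, 406 cells at 6 months and 2072 cells at 3 months, 19.95% of cells were under 0.5% at 6 months and 13.8% at 3 months. The TNC-led cluster, with 111 cells at 6 months and 1118 at 3 months, had 22.5% and 29.6% of its cells so low. These low cells were also shallower: in the TNC-led cluster at 3 months their median depth was 4157 UMIs, against 7741 UMIs in the others.

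Macrophage-like cells had a median of 1.02% at 6 months and 3.48% at 3 months, and 26.8% and 74.8% of them were over 2%. Gonadotroph-like cells had a median of 0.217% at 6 months and 0.739% at 3 months. For endothelial-like cells it was 0.946% at 6 months and 0.635% at 3 months. In lactotroph-like cells the medians were close, 0.181% at 6 months and 0.168% at 3 months, while the 90th percentiles were 0.418% and 0.635%. The tenth of lactotroph-like cells with the highest shares carried 28.6% of the summed shares at 6 months and 41.4% at 3 months. Macrophage-like cells went the other way, with 31.3% and 21.2%. The highest single cell had 10.7% at 6 months and 12.5% at 3 months among macrophage-like cells.

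**Figure D3:**
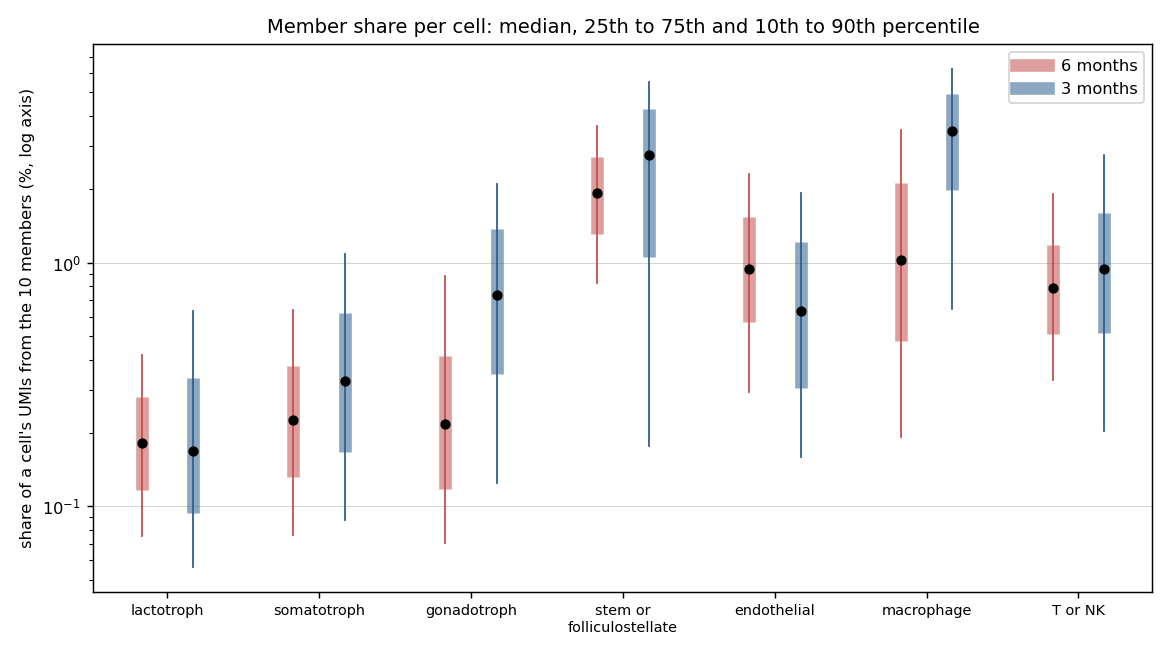
Share of a cell's UMIs that came from the 10 members (y axis, %, log axis) by class, red for 6 months and blue for 3 months. Points mark the median, wide bars the 25th to 75th and lines the 10th to 90th percentile; the medians of macrophage-like cells are 1.02% and 3.48%, and those of lactotroph-like cells 0.181% and 0.168%.

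Counted at 1 depth, with each cell thinned to 2000 UMIs, several members were usually found together. Thinning left out 1022 of 12683 cells at 6 months and 2256 of 15446 cells at 3 months, which had fewer UMIs. The median number of members with a UMI was 7 in stem or folliculostellate-like cells of both libraries, 6 at 6 months and 9 at 3 months in macrophage-like cells, and 2 in lactotroph-like cells of both libraries. At least 8 of the 10 were found in 44.3% of stem or folliculostellate-like cells at 6 months and 49.7% at 3 months, in 29.9% and 77.1% of macrophage-like cells, and in 0.446% and 0.931% of lactotroph-like cells. All 10 were found in 1.69% of macrophage-like cells at 6 months and 16.7% at 3 months. No class should lack these genes, so no class gave a background share for comparison.

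By member, FOS was found in 97.1% of thinned stem or folliculostellate-like cells at 6 months and 90.1% at 3 months, in 74.2% and 94.6% of macrophage-like cells, and in 50.6% and 45.8% of lactotroph-like cells. Without thinning, FOS was found in 90.6% of lactotroph-like cells at 6 months, whose median depth was 17734 UMIs. JUND was found most evenly: its lowest share among the 7 compared classes was 67.3% at 6 months, in gonadotroph-like cells, and 68.6% at 3 months, in lactotroph-like cells. T or NK-like cells had it in 96.0% at 6 months and 93.9% at 3 months, with medians of 6 and 6.5 JUND UMIs per thinned cell. ZFP36 was found in 16.0% of macrophage-like cells at 6 months and 40.9% at 3 months, its highest shares in the compared classes. ATF3 was found in 8.57% of gonadotroph-like cells at 6 months and 39.2% at 3 months.

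Within single cells the leading member repeated the class totals only in part. All shares in this paragraph are of the thinned cells of a class with 1 clear leader. Among the 7 compared classes, such cells ranged from 66.0% of thinned cells (lactotroph-like, 3 months) to 93.2% (stem or folliculostellate-like, 6 months). In stem or folliculostellate-like cells FOS led 79.6% at 6 months and 81.2% at 3 months. In macrophage-like cells FOS led 27.0% at 6 months and 67.8% at 3 months, DUSP1 led 20.6% and 5.08%, and ATF3 led 6.89% and 1.96%. JUND led 40.8% of lactotroph-like cells at 6 months and 40.1% at 3 months, and 63.0% and 50.7% of T or NK-like cells. FOS led 33.7% of gonadotroph-like cells at 6 months and 64.7% at 3 months. Endothelial-like cells were led by FOS in 53.9% at 6 months and 27.5% at 3 months, and by JUN in 13.3% and 45.9%.

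Members varied together from cell to cell to different degrees. Across thinned cells of a class, FOS and JUN had the highest Pearson correlation of log counts in 11 of the 14 class and library combinations compared, with 0.57 at 6 months and 0.85 at 3 months in stem or folliculostellate-like cells and 0.57 and 0.72 in macrophage-like cells. Their lowest value was 0.22, in lactotroph-like cells at 6 months. The weakest pairs held IER3: with ZFP36 and with JUND it had a median of 0.02 each, and with JUN a median of 0.03, over the 14 combinations. These cells share a library and a depth of 2000 UMIs, and sparse counts lower a correlation, so values of scarce genes such as ZFP36 are not comparable with those of FOS.

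The share per cell also moved with depth in some classes. In the 25% of somatotroph-like cells with the fewest UMIs the pooled share was 0.417% at 6 months and 0.630% at 3 months, and in the 25% with the most it was 0.178% and 0.290%. Stem or folliculostellate-like cells went the other way, with 1.99% at 6 months and 2.07% at 3 months in the shallowest 25% and 2.23% and 3.42% in the deepest. In macrophage-like cells the 3-month value was the higher in each of 4 depth groups of 25%, from 0.777% at 6 months and 2.82% at 3 months in the deepest group to 2.01% and 4.25% in the second. The part of depth in these shares was not tested.

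The study set 6 months against 3 months, ages chosen around puberty. For this comparison, class sums were put on edgeR TMM effective library sizes, which lessen the weight of the hormone transcripts, and each ratio is the log2 of the 6-month level divided by the 3-month level. Most members were lower at 6 months in most classes: of 69 measured pairs of a class and a member, 54 had a ratio below 0. At least 2-fold lower at 6 months were 26 pairs and 3 were 2-fold higher, where by class 1.85% to 5.51% of all measured genes were lower and 0.527% to 12.4% higher. The members' median ratio was lowest in macrophage-like cells (-1.72) and gonadotroph-like cells (-1.65). Endothelial-like cells had 8 of 10 members above 0. The intervals given are exact 95% intervals of counting error only and take no account of variation between cells.

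**Figure D4:**
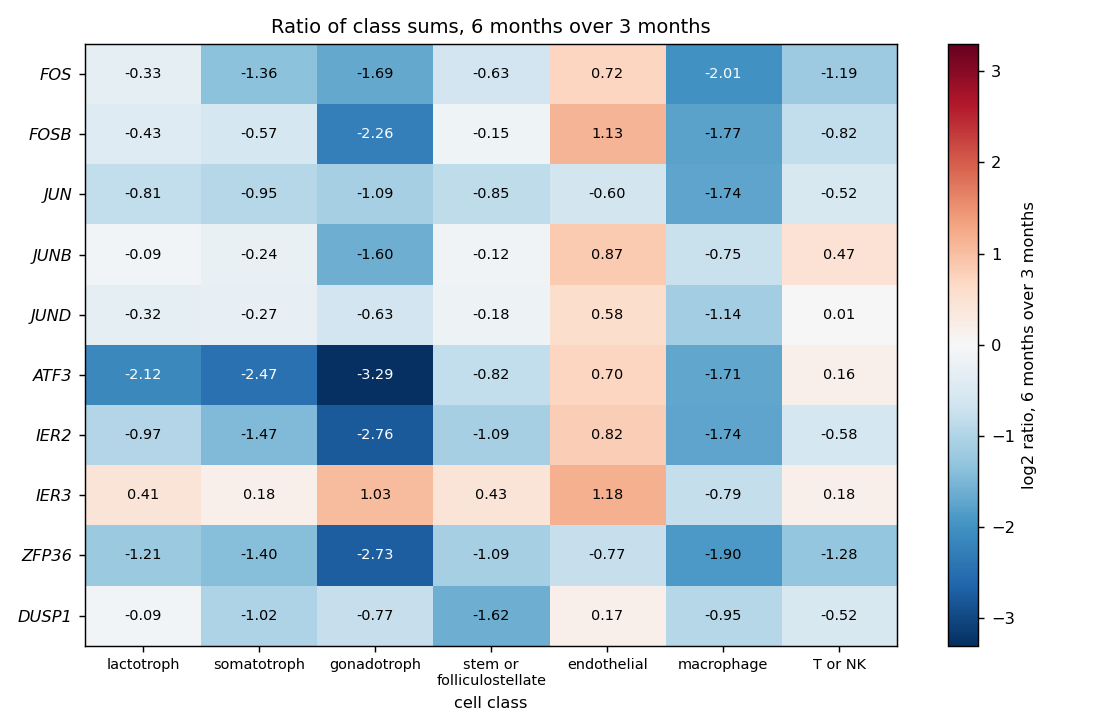
Log2 ratio of class sums, 6 months over 3 months, on TMM effective sizes (colour and printed value), for the 10 members (rows) in the 7 classes (columns). Blue marks lower at 6 months, as for ATF3 in gonadotroph-like cells (-3.29), and red higher, as for IER3 in endothelial-like cells (1.18).

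In macrophage-like cells, 7 of 10 members were at least 2-fold lower at 6 months, against 5.27% of the 9494 genes measured in the class, those with at least 100 summed UMIs. None was 2-fold higher (6.27% of all genes). The median ratio of all genes was 0.02. FOS had 2715 TMM-scaled CPM at 6 months and 10923 at 3 months, a ratio of -2.01 (-2.03 to -1.99) or 4.02-fold lower. ZFP36 was at -1.90, FOSB at -1.77, JUN and IER2 at -1.74, ATF3 at -1.71 and JUND at -1.14. DUSP1 (-0.95), IER3 (-0.79) and JUNB (-0.75) were under 2-fold.

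Different clusters held these macrophage-like cells. At 6 months 1033 of 1725 cells were in a cluster whose leading genes include CXCL10 and C1QA, with a member share of 1.91%, and at 3 months 1207 of 1374 cells were in one led by CXCL8, DUSP2 and CD83, with 3.72%. In the clusters to which each library gave at least 10% of cells, 651 cells at 6 months and 141 at 3 months, 2 members were 2-fold lower (4.14% of 6138 genes), FOS at -1.07 and ZFP36 at -1.21. There JUN was at -0.99, ATF3 at -0.99, FOSB at -0.70, IER2 at -0.50 and JUND at -0.36, and JUNB (0.16) and IER3 (0.29) lay above 0. Of the cells in these shared clusters, 417 at 6 months and 103 at 3 months were in a macrophage-like cluster led by CXCL9. Its name had 8 supporting macrophage markers, but 5 dendritic cell markers were raised there too. The 6-month cells of the CXCL8-led cluster, 41 in all, had 2.64%, and the 3-month cells of the CXCL10-led cluster, 26 in all, had 3.01%.

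In gonadotroph-like cells, 7 of 10 members were at least 2-fold lower (5.51% of 9590 genes) and 1 was 2-fold higher (3.68%). All genes had a median of -0.01. ATF3 had 50.6 TMM-scaled CPM at 6 months and 494.5 at 3 months, a ratio of -3.29 (-3.48 to -3.10) or 9.78-fold lower. IER2 was at -2.76, ZFP36 at -2.73, FOSB at -2.26, FOS at -1.69, JUNB at -1.60 and JUN at -1.09. DUSP1 (-0.77) and JUND (-0.63) were under 2-fold. IER3 was the member above 0, at 1.03 (0.77 to 1.29), with 43.8 and 21.4 TMM-scaled CPM at 6 and 3 months, and it was under 2-fold on class totals (0.87) and from the mean of per-cell CPM (0.74).

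These cells too lay in different clusters. At 6 months 142 of 256 cells were in an IGFBP1-led cluster with 2 cells of the 3-month library, and its member share was 0.197%. At 3 months 856 of 1154 cells were in an FSHB-led cluster, with a share of 0.611% in its 81 cells at 6 months and 1.00% at 3 months. Within the FSHB-led cluster, on its UMI totals, 4 members were 2-fold lower (7.58% of 11988 genes with at least 20 summed UMIs and none at 0): ATF3 at -2.62, ZFP36 at -2.47, IER2 at -2.37 and FOSB at -1.67. FOS was at -0.70 there, JUNB at -0.79, JUN at -0.29 and IER3 at -0.17.

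In somatotroph-like cells, 5 of the 9 measured members were 2-fold lower (1.85% of 8735 genes) and none higher (0.527%), with a median of -1.02 against 0.00 for all genes. ATF3 was at -2.47 (148 UMIs at 6 months, 1792 at 3 months), IER2 at -1.47, ZFP36 at -1.40, FOS at -1.36 and DUSP1 at -1.02. At 6 months both free RNA estimates exceeded the counted UMIs of ATF3 (283% as a fixed share, 212% as a fixed number). The same held for IER2 (160% and 120%), so neither gene was distinguishable from free RNA in this class at 6 months. FOS had 611.0 TMM-scaled CPM at 6 months and 1568 at 3 months. JUND (-0.27) and JUNB (-0.24) differed little. IER3 had 28 UMIs at 6 months and 54 at 3 months and was not measured. The median of all genes moved by 0.22 when class totals were used, and DUSP1 was then at -0.79.

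In lactotroph-like cells, the largest class at 6 months, 2 of 10 members were 2-fold lower (4.04% of 11969 genes) and none higher (2.7%). ATF3 was at -2.12, with 34.0 TMM-scaled CPM at 6 months and 148.1 at 3 months, and ZFP36 at -1.21, from 519 UMIs at 6 months and 508 at 3 months. IER2 was at -0.97 and JUN at -0.81, while FOS (-0.33), JUND (-0.32), JUNB (-0.09) and DUSP1 (-0.09) differed less, and the median of all genes was 0.04. JUNB and DUSP1 lay at 0.06 on class totals, where that median moved by 0.15. The members' median was -0.38. Different clusters held these cells too: 2711 of 5010 at 6 months were in a PRL-led cluster with 124 cells of the 3-month library, and 1598 of 2298 at 3 months in a GAL-led cluster with 65 cells of the 6-month library. Within single clusters, on UMI totals, FOS lay further below 0 than in the class, at -0.51 in the PRL-led, -1.30 in the large GAL-led and -0.95 in the DIO2-led cluster, and at -0.81 in a small GAL-led cluster of 24 cells at 6 months. DUSP1 was at -0.22 in the PRL-led, -0.44 in the large GAL-led and -0.61 in the DIO2-led cluster. The DUSP1 value of -1.20 in the small GAL-led cluster rests on very few UMIs. Its 24 cells at 6 months, with a median depth of 9003.5 UMIs, carried DUSP1 at only 9.90 CPM.

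In stem or folliculostellate-like cells, where the members were most abundant, 3 of 10 were 2-fold lower (1.91% of 12305 genes) and none higher (4.2%). DUSP1 was at -1.62, with 475.5 TMM-scaled CPM at 6 months and 1462 at 3 months, and ZFP36 and IER2 were both at -1.09. FOS had 8169 TMM-scaled CPM at 6 months and 12616 at 3 months, a ratio of -0.63 (-0.63 to -0.62), JUN was at -0.85 and ATF3 at -0.82. FOSB (-0.15), JUNB (-0.12) and JUND (-0.18) differed little, and IER3 was at 0.43. Most 6-month cells, 1577 of 2094, were in a cluster led by S100A2 with 2.32% at 6 months and 4.99% at 3 months. Most 3-month cells, 2072 of 3448, were in the IFI6-led cluster with 1.34% at 6 months and 3.22% at 3 months. Within those clusters and the TNC-led one the difference was larger than in the class as a whole: on UMI totals, 7 of 10 members were 2-fold lower in the S100A2-led, 9 in the IFI6-led and 7 in the TNC-led cluster, and FOS was at -1.12, -1.20 and -1.10 there. Of all genes with at least 20 summed UMIs and none at 0, 3.39%, 4.18% and 4.92% were 2-fold lower in these clusters.

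In endothelial-like cells, 2 of 10 members were 2-fold higher (3.22% of 7618 genes) and none lower (3.62%), with a median of 0.71 against -0.09 for all genes. FOSB was at 1.13 (0.97 to 1.29), with 341.4 TMM-scaled CPM at 6 months and 155.9 at 3 months, and IER3 at 1.18 (0.96 to 1.40). JUNB was at 0.87, IER2 at 0.82, FOS at 0.72, ATF3 at 0.70, JUND at 0.58 and DUSP1 at 0.17. JUN (-0.60) and ZFP36 (-0.77) lay below 0. With doublets kept, FOSB was at 0.50 and IER3 at 0.37. At 6 months 121 of 252 cells were in a cluster led by IL32, CXCL9 and CXCL10 with no cell of the 3-month library. In the other cluster, with 131 cells at 6 months and 1875 at 3 months, the member share was 1.20% and 0.893%, and FOSB was at 1.38. A further cluster of 184 cells at 6 months and 1 at 3 months had 9 endothelial markers raised but was left unnamed by the naming rule. Its member share at 6 months was 1.16%. With clusters named by markers alone, 2 members were again 2-fold higher in endothelial-like cells.

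In T or NK-like cells, 2 of 10 members were 2-fold lower (2.31% of 3856 genes) and none higher (12.4%). FOS was at -1.19, with 1493 TMM-scaled CPM at 6 months and 3407 at 3 months, and ZFP36 at -1.28, from 104 UMIs at 6 months and 27 at 3 months. The members' median was -0.52 and that of all genes 0.25, which moved by -0.30 on class totals. JUND was at 0.01 and JUNB at 0.47. On class totals JUND was at -0.30, ATF3 at -0.14 and IER3 at -0.13, so their direction depended on the scaling. The 3-month library had 110 cells here, and the fixed-number free RNA estimate would bring 74.5% of the FOS UMIs at 6 months and 20.4% at 3 months.

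By member, ZFP36 was 2-fold lower in 6 of the 7 classes and below 0 in all 7. From the mean of per-cell CPM it was under 2-fold in 4 of those 6, at -0.82 in lactotroph-like, -0.95 in somatotroph-like and in stem or folliculostellate-like, and -0.87 in T or NK-like cells. JUN was also below 0 in all 7, from -1.74 in macrophage-like to -0.52 in T or NK-like cells. FOS, ATF3 and IER2 were each 2-fold lower in 4 classes, with medians over the classes of -1.19, -1.71 and -1.09. JUND (median -0.27) and JUNB (-0.12) were 2-fold lower in 1 class each. IER3 was below 0 in 1 class, macrophage-like cells, but with doublets kept also in lactotroph-like (-0.17) and somatotroph-like cells (-2.18).

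Single clusters mostly had the same direction, but their counts of 2-fold lower members differed from those of their classes. Of 23 clusters with at least 20 cells of each library, the summed member share was lower at 6 months in 20 and higher in 3, on UMI totals. By cluster, 3.1% to 20.4% of all genes were 2-fold lower and 2.39% to 14.2% higher. ZFP36 was 2-fold lower in 16 of 21 clusters where it was measured, ATF3 in 15 of 23, FOS in 12 and FOSB in 11. JUN was below 0 in all 23, and JUND was 2-fold apart in none. IER3 was 2-fold lower in 6 of 22 clusters and higher in 2. Among the clusters with the higher share at 6 months were the endothelial-like one above, an unnamed cluster led by UBE2C and TOP2A, genes of dividing cells (1.30% at 6 months and 1.21% at 3 months), and an unnamed cluster with epithelial markers (1.21% and 1.10%).

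**Figure D5:**
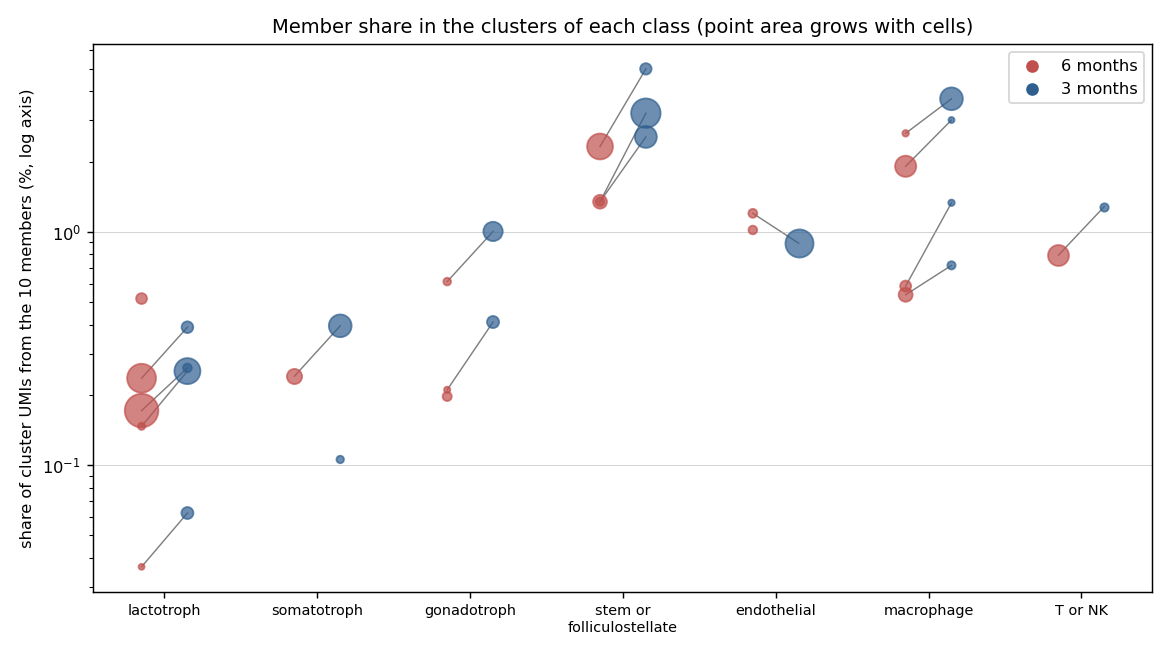
Share of a cluster's UMIs that came from the 10 members (y axis, %, log axis) for the clusters of each class with at least 20 cells in a library, red for 6 months and blue for 3 months; grey lines join the same cluster and point area grows with its cells. Lines slope upward to the right, toward 3 months, in every class except endothelial-like cells (1.20% and 0.893%).

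Other genes of the early response did not all follow the members. Of a list of 50, measured members of the list numbered 31 to 46 by class. In macrophage-like cells 19 of 46 were 2-fold lower and 4 higher (median -0.63), led by KLF2 (-2.87) and NFKBIZ (-2.63). In gonadotroph-like cells 16 of 42 were lower and 3 higher (median -0.49), led by EGR4 (-5.22) and EGR3 (-4.41). In stem or folliculostellate-like cells 2 of 45 were lower and 17 higher (median 0.52), with KLF2 (-1.43) and CCN1 (-1.30) lowest and NFKBIA at 2.26. In endothelial-like cells 4 of 39 were lower and 11 higher (median 0.51). In lactotroph-like cells 5 of 45 were lower and 4 higher, in somatotroph-like cells 2 of 31 and none, and in T or NK-like cells none of 34 and 3. Of all measured genes, 5.27% were lower and 6.27% higher in macrophage-like cells and 5.51% and 3.68% in gonadotroph-like cells. In stem or folliculostellate-like cells 1.91% and 4.2% were, and in endothelial-like cells 3.62% and 3.22%. The shares were 4.04% and 2.7% in lactotroph-like, 1.85% and 0.527% in somatotroph-like, and 2.31% and 12.4% in T or NK-like cells. In the same fit EGR1 and NR4A1, also immediate early transcription factors, were at -1.58 and -1.83 in gonadotroph-like, -1.78 and -2.31 in macrophage-like, and 0.71 and 0.60 in endothelial-like cells, while NR4A3 was at 1.77 in lactotroph-like and 2.14 in stem or folliculostellate-like cells.

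Heat shock genes, which dissociation can also induce, were listed as 17, of which 15 were in the matrices and measured in each class. HSPA1A, an inducible chaperone gene, was 2-fold higher at 6 months in all 7 classes, from 1.43 in stem or folliculostellate-like to 3.20 in lactotroph-like cells. The medians of the list were 0.20 in lactotroph-like, -0.14 in somatotroph-like, -0.26 in gonadotroph-like, -0.22 in stem or folliculostellate-like, 0.07 in endothelial-like, -0.70 in macrophage-like and 0.81 in T or NK-like cells. BAG3, a co-chaperone gene, was at 1.02 in endothelial-like and 1.86 in T or NK-like cells, and HSPA6 at -1.40 in stem or folliculostellate-like cells.

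Across 17 profiles, each a named class in 1 library with at least 50 cells, levels of the members on a log2 scale with 10 CPM added were compared with those of all genes. FOS was most like JUN (Pearson's r 0.96), FOSB (0.95) and ZFP36 (0.93), JUN also like IFI6 (0.92), and ATF3 like FOSB (0.91) and IER2 (0.88). JUND was like YWHAZ (0.96) and MAP3K1 (0.92), and JUNB like TBL1XR1 (0.93), IER2 (0.92) and TALDO1 (0.92). IER3 was most like MAFF (0.96), GLUL (0.96) and ALCAM (0.95), and DUSP1 like 2 genes without a symbol of their own (0.94 each) and MCL1 (0.93). The lowest value between members was 0.71, for JUND and DUSP1. Profiles of 1 library share its depth and free RNA, so these values are descriptions only.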

How the data were processed

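The authors deposited, for each library, raw UMI counts per gene and barcode without normalization, beside other non-numeric lists of gene symbols with NCBI Gene identifiers and of barcodes. Reads were processed with Cell Ranger, version 5.0.0 per the submitters' processing notes and 5.0.1 per the file headers; the sources used here name no genome build. The 6-month library held 15031 barcodes and the 3-month library 18961, with medians of 7434 and 4361 UMIs, none below 500.

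The cell filter required 500 genes and 1000 UMIs per barcode (13253 and 16368 passed), and Scrublet doublets (570, 4.30%, and 922, 5.63%) were removed with scanpy 1.11.5. Counts were scaled to 10000 per cell, log-transformed and reduced from 3000 variable genes, clipped at 10, to 30 principal components; Leiden clustering used 15 neighbours, resolution 1, seed 1 and no integration. The 75 early response and heat shock genes were kept out of the variable genes. Clusters were named from 133 markers of 18 classes, 122 of them in the matrices. A marker had to be 1.5-fold higher in the cluster and found in 10% of its cells. A name needed 3 such markers and 40% of the class's markers. No other class might have more among the 10 leading genes found in 20% of cells, and a shallow cluster needed a marker among these. The naming rule was chosen once the clusters were known. The members and lists were chosen with earlier results of these data known.

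Counts were summed by class and library. Ratios of classes with 50 cells in each library used edgeR 4.0.16 TMM effective sizes, and a gene was measured with 100 summed counts; no fold was given against 0. Levels, shares and cluster values used UMI totals. Intervals are exact at 95% (Clopper-Pearson for shares, conditional binomial for ratios) and cover counting error only. Thinning and scaling were tested on simulated data. The named genes are all members, the 2 highest and 2 lowest genes of each other list by class, and the 3 genes most like each member; EGR1, NR4A1 and, in stem or folliculostellate-like cells, NR4A3 are named beside them. Some genes that the rule names are not reported here. Alternatives were another cell filter, doublets kept, other resolutions, early genes allowed in clustering, shared clusters, other scalings, a minimum of 20 counts, thinning to 1000 UMIs and subtraction of free RNA; naming by markers alone and a fixed number of free UMIs per cell were added after seeing the data.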

Additional observations from a re-analysis of the deposited data

Results flagged for a closer look

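FOSB differed between classes in direction. It was at least 2-fold lower at 6 months in gonadotroph-like cells (log2 ratio -2.26) and in macrophage-like cells (-1.77), and at least 2-fold higher in endothelial-like cells (1.13). With 1 library per age, the difference between these classes was not tested. In single clusters on UMI totals FOSB was at -1.67 in the FSHB-led gonadotroph-like cluster, at -0.95 and -1.41 in the 2 largest macrophage-like clusters, and at 1.38 in the endothelial-like cluster that both libraries share. The 6-month endothelial-like value rests on 451 FOSB UMIs from 252 cells, and it was at 0.50 with doublets kept.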

How the results depend on the processing

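The numbers of members at least 2-fold lower at 6 months moved as follows. With free RNA subtracted as a fixed share they were 5 in lactotroph-like cells (2 as reported), 8 in somatotroph-like cells (5) and 1 in stem or folliculostellate-like cells (3), and 6 members were higher in endothelial-like cells (2). Subtracted as a fixed number of UMIs per cell, they were 4, 8 and, in T or NK-like cells, 4 (2 as reported), with 6 higher in endothelial-like cells. From the mean of per-cell CPM they were 1 in lactotroph-like, 3 in somatotroph-like, 1 in stem or folliculostellate-like and 0 in T or NK-like cells. The stricter filter gave 4 in T or NK-like cells, and clusters of both libraries alone gave 2 in macrophage-like cells (7). With doublets kept, endothelial-like cells had 1 lower and 0 higher. In gonadotroph-like cells the 1 higher member, IER3, became 0 with doublets kept, at resolution 0.5, with free RNA subtracted as a fixed share, on class totals and from the mean of per-cell CPM. The causes were not tested. No called value changed sign. In each alternative run, the number of the 14 class and library combinations led by FOS, the number of the 7 classes with the lower member share at 6 months and the number of detection shares of at least 50% stayed within 1.5 times the reported value. Clusters of both libraries gave values for 4 of the 7 classes.

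The subtraction of free RNA and the scaling also moved all genes. With the fixed share subtracted, the genes 2-fold lower were 1025 of 11428 in lactotroph-like cells (483 of 11969 as reported). They were 336 of 8655 in somatotroph-like (162 of 8735) and 420 of 12155 in stem or folliculostellate-like cells (235 of 12305). With the fixed number subtracted they were 795 of 11829 in lactotroph-like and 310 of 8698 in somatotroph-like cells. On class totals the genes 2-fold lower and higher were 382 and 483 in lactotroph-like cells (483 and 323 as reported), 109 and 128 in somatotroph-like (162 and 46), 742 and 236 in gonadotroph-like (528 and 353), 357 and 210 in endothelial-like (276 and 245) and 203 and 261 in T or NK-like cells (89 and 478). Without hormone genes in the total they were 117 and 108 in somatotroph-like, 174 and 282 in T or NK-like and 345 and 829 in macrophage-like cells (500 and 595 as reported). From the mean of per-cell CPM they were 334 and 647 in lactotroph-like, 140 and 215 in somatotroph-like, 706 and 276 in gonadotroph-like and 283 and 261 in T or NK-like cells. No paired analysis was possible because each age had 1 library. Depth limits IER3 and ZFP36 in lactotroph-like, somatotroph-like and gonadotroph-like cells, where 24 to 519 UMIs were summed per class and library.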

Other observations

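Unnamed cells also carried the members. Their summed share was 0.721% at 6 months (1647 cells) and 1.75% at 3 months (3507 cells), with FOS in the lead at 29.6% and 36.2% of member UMIs. The largest unnamed cluster, nearest to stem or folliculostellate cells by its markers, had 0.936% in 294 cells at 6 months and 1.97% in 1762 cells at 3 months, and 8 of 10 members were 2-fold lower there (5.41% of all genes), ZFP36 by the most (-3.27). An unnamed cluster led by SCGN, ARC and CHGA had 0.957% in 94 cells at 6 months and 1.91% in 471 cells at 3 months, with JUND at 2962 and 2193 CPM and FOS at 1779 and 6122 CPM. An unnamed cluster led by PCLO and ASIC4 and nearest to lactotrophs had 0.341% in 729 cells at 6 months and 0.522% in 384 cells at 3 months.

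A cluster of lactotroph-like cells with CXCL9 as its leading gene contained 228 cells at 6 months and 11 at 3 months. At 6 months it had 1721 CPM of FOS, against 428.9 CPM in the largest lactotroph-like cluster of that library, and its median depth was 3692 UMIs, against 20441 UMIs. A fixed 1825 free UMIs per cell, as estimated at 6 months, would be a larger part of such shallow cells. Its part in this FOS level was not tested.

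The class and its clusters gave different counts of members. In stem or folliculostellate-like cells 3 members were 2-fold lower over the class, but 7, 9 and 7 in its 3 clusters on UMI totals, where 3.39% to 4.92% of all genes were. In macrophage-like cells 7 were lower over the class, but 4, 0, 2 and 2 in its 4 clusters, where 6.52% to 17.4% of all genes were. In gonadotroph-like cells 7 were lower over the class. In the FSHB-led cluster 4 were lower, where 7.58% of all genes were. An LHB-led cluster of 33 cells at 6 months and 296 at 3 months had 5 of 9 measured members lower, where 20.4% of all genes were.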
